A study of Mus musculus with 6 samples.

Results

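Interleukins are secreted proteins through which blood, immune and stromal cells signal to each other, and each acts through a receptor of a few chains on the receiving cell. The genes described here are those whose mouse symbol begins with Il and a digit, 85 of the 37576 genes counted, and they comprise 39 ligands, 39 receptor chains, 6 soluble or decoy inhibitors and 1 enzyme. Many receptor chains are shared: the common gamma chain serves IL-2, IL-4, IL-7, IL-9, IL-15 and IL-21, gp130 serves the IL-6 family, and the IL-12 and IL-23 receptors share a chain. In the fetal liver, the main site of blood formation before birth, several of these cytokines act on stem and progenitor cells, mast cell and lymphoid precursors, macrophages and hepatoblasts.

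The E861A group held 3 livers of Adar1E861A/E861A embryos (livers 6, 16 and 19, all male), in which the RNA-editing enzyme ADAR1 carries a mutation that abolishes its catalytic activity. The wild-type (WT) group held livers 2 (male), 15 and 17 (both female). Each embryo was C57BL/6 and at embryonic day 12.5, and RNA came from a suspension of the whole liver, so fewer cells of a type and less RNA per cell cannot be told apart. Levels are given in reads per 1e6 reads (CPM), and the question is which interleukins and receptors differ in level where ADAR1 cannot edit.

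Between 35280460 and 43733715 reads were counted in genes per library, and the Pearson correlation of log2(CPM + 1) across genes was 0.973 to 0.995 between libraries of 1 genotype. Markers of the labelled tissue were present: summed hepatoblast markers lay at 20561 to 30016 CPM in E861A and at 16656 to 20944 CPM in WT, with 4 of 11 higher in E861A, or 0 in the fit with a sex term. Summed erythroid markers lay at 19123 to 21490 CPM in E861A and at 23039 to 56894 CPM in WT, with 3 of 11 lower in E861A, or 0 in the fit with a sex term, the highest sum being that of the female WT 15. Immediate early and heat shock genes, which respond to tissue dissociation, summed to 624 to 1362 CPM in E861A and to 125 to 368 CPM in WT, with 6 of 12 higher in E861A, or 7 in the fit with a sex term.

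Of the 85 genes, 50 had enough reads to be tested, and 14 of these rose in E861A livers while 0 fell. The 14 were 5 ligands (Il4, Il7, Il15, Il18 and Il23a), 7 receptor chains (Il2rg, Il3ra, Il12rb1, Il15ra, Il17rc, Il18rap and Il22ra1) and 2 inhibitors of IL-1 (Il1rn and Il1r2). They lie on 11 chromosomes. The 14 make up 28% of the tested interleukin genes, while 7.77% of all 16511 tested genes rose and 4.26% fell (edgeR quasi-likelihood test, Benjamini-Hochberg adjusted p under 0.05 over all tested genes). The log2 fold change was above 0 for 45 of the 50, against 53.3% of all tested genes, with a median of 0.66 against 0.04. In 28 of the 50 every E861A library lay above every WT library, as in 19.4% of all tested genes, and in 1, Il12rb2, every E861A library lay below, as in 14.5%.

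At an unadjusted p under 0.05, 25 interleukin genes were higher and 0 lower, with 15.5% of all tested genes higher. Limma-voom called 14 higher and 0 lower (7.84% and 4.08% of all genes), the same 14 genes. Size factors by the median of ratios gave 13 higher and 0 lower (7.1% and 5.34%), without Il18. DESeq2 gave 18 higher and 0 lower and split all genes more evenly, with 9.08% higher and 9.32% lower. A floor of 1 CPM in 3 libraries left 40 interleukin genes to test and gave 13 higher and 0 lower, with 8.5% and 8.33% of all genes. These 13 included Il4ra and lacked Il4 and Il23a, which fell below the floor and were not tested. A gene could pass the minimum on reads through E861A libraries alone: Il6 and Il23a reached it in no WT library, and 7 of the 50 reached it in fewer than 3 WT libraries, 4 of them among the 14.

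**Figure D1:**
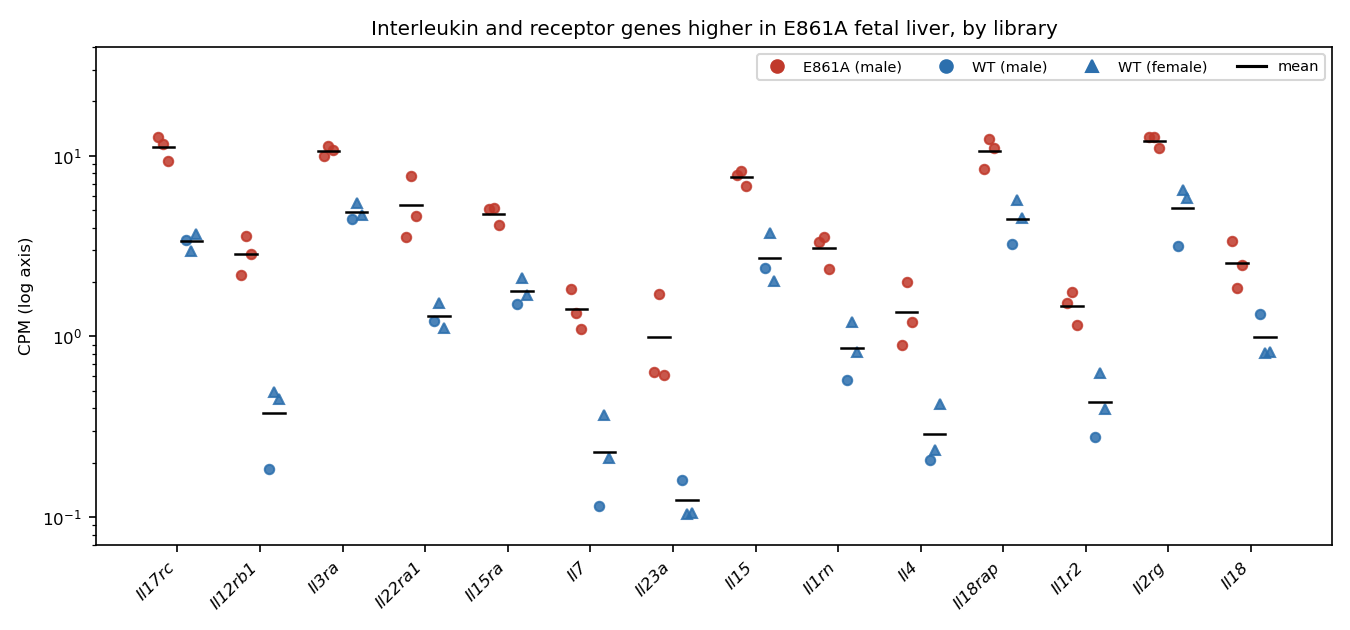
CPM on a log axis of the 14 interleukin genes that rose, in 3 E861A libraries (red) and 3 WT libraries (blue; circles male, triangles female), with a bar at each mean. For each gene, every E861A library lies above every WT library.

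Promoter sequences are shown for 4 of the 14 because each window, 250 bases before to 50 after the transcript start, holds a match to a motif through which interferon or NF-kB signals reach genes. They are RefSeq sequences of GRCm38.p6 on the strand of the gene, with the match in capitals. The letters searched on both strands were GAAA, NN and GAAA in a row (core of the interferon-stimulated response element), TTCNNNGAA (interferon-gamma activated site) and GGG, NN and TTTCC in a row (NF-kB site), where N is any base. In the Il1r2 window the letters match on both strands at the same bases, and apart from this no matches overlap in the 4 windows shown.
Il17rc, chr6:113471205-113471504, plus strand, NF-kB site read on the strand opposite to the gene: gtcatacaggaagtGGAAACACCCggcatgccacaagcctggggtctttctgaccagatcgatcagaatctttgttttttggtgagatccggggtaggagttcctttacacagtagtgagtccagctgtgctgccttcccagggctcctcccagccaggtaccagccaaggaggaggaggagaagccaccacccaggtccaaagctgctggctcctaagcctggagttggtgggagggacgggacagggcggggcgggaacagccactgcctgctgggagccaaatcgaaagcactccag
Il1rn, chr2:24345121-24345420, plus strand, NF-kB site: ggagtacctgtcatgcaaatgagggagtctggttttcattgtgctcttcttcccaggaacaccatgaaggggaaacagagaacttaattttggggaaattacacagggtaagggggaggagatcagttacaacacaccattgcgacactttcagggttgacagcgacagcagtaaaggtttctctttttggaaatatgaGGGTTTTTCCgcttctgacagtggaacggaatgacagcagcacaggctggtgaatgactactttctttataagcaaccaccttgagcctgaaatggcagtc
Il1r2, chr1:40085843-40086142, plus strand, interferon-gamma activated site: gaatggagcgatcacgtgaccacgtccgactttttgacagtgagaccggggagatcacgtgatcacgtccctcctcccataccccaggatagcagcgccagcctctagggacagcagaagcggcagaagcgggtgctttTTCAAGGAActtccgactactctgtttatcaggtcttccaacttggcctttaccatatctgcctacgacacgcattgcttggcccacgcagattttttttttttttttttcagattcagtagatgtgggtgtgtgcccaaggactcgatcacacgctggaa
Il4, chr11:53618616-53618915, minus strand, response element core read on the strand opposite to the gene: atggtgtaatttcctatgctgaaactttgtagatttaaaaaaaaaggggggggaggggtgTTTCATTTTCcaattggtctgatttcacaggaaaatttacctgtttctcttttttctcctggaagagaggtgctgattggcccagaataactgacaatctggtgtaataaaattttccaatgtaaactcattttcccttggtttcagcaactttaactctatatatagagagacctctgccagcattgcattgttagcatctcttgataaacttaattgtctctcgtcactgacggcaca
RefSeq lists further starts for Il1rn and Il4, and another window of Il4 holds an interferon-gamma activated site. Windows were at hand for 65 of the 85 genes and for 10 of the 14 that rose, with none for Il7, Il12rb1, Il15 and Il23a. The NF-kB letters occurred in 2 of the 10, in 7 of the 65 and in 1.89% of all 27025 genes with a window. The interferon-gamma activated site occurred in 2 of the 10, in 10 of the 65 and in 9.55% of all genes, and the response element core in 1 of the 10, in 3 of the 65 and in 3.99%. These are counts of letters in a window, and no test was made of them.

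Among ligands and receptors of the common gamma chain, grouped here with IL-13 and its receptor chains, 5 of 11 tested genes rose. Il7 (ENSMUSG00000040329, chromosome 3, 7572036 to 7613722, minus strand, NCBIM37), which encodes a growth factor of lymphoid precursors made by stromal cells, had 1.82, 1.36 and 1.09 CPM in E861A 6, 16 and 19, against 0.115, 0.365 and 0.212 CPM in WT 2, 15 and 17. Every E861A library was above the highest WT library, and the log2 fold change was 2.62 (SE 0.48, edgeR adjusted p = 0.0131). The counts were small, 77, 48 and 50 reads in E861A and 5, 14 and 8 reads in WT. The exons of Il7 share 3.06% of their bases with Gm16685, a noncoding gene on the other strand, and strandedness of the libraries is not given in the sources used here.

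IL-15 sustains natural killer cells and memory T cells and is presented to them bound to its own receptor chain, and the genes of both partners rose. Il15 (ENSMUSG00000031712, chromosome 8, 84855536 to 84927121, minus strand) had 7.82, 8.21 and 6.78 CPM in E861A, against 2.39, 3.73 and 2.04 CPM in WT (log2 fold change 1.48, SE 0.28, edgeR adjusted p = 0.0150). Il15ra (ENSMUSG00000023206, chromosome 2, 11626914 to 11655613, plus strand), the presenting chain, had 5.08, 5.11 and 4.16 CPM in E861A, against 1.52, 2.11 and 1.69 CPM in WT (1.43, SE 0.26, edgeR adjusted p = 0.0130). In both genes the lowest E861A library was well clear of the highest WT library.

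Il2rg (ENSMUSG00000031304, chromosome X, 98459717 to 98463594, minus strand) encodes the common gamma chain itself. It had 12.8, 12.7 and 10.98 CPM in E861A, against 3.15, 6.47 and 5.83 CPM in WT, where the male library was the lowest (log2 fold change 1.24, SE 0.28, edgeR adjusted p = 0.0292). Its exons share 30.5% of their bases with Gm20489 on the same strand, so its count is uncertain. Il4 (ENSMUSG00000000869, chromosome 11, 53416484 to 53432171, minus strand), a cytokine of type 2 immunity and of mast cells and basophils, had 0.898, 2.004 and 1.203 CPM in E861A, against 0.207, 0.235 and 0.424 CPM in WT (2.24, SE 0.47, edgeR adjusted p = 0.0211). The lowest E861A library stood above the highest WT library, on 38, 71 and 55 reads in E861A and 9, 9 and 16 reads in WT. The exons of Il4 share 14.6% of their bases with Kif3a on the other strand, whose log2 fold change was -0.24 (SE 0.21).

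The other receptors of this family did not pass the test. Il4ra, the chain that binds IL-4, had 19.9, 34.8 and 29.8 CPM in E861A and 11.1, 19.01 and 13.8 CPM in WT, with a log2 fold change of 0.94 (SE 0.27) and an edgeR adjusted p of 0.0585. Its groups did not overlap, and it passed under DESeq2, with no filter, with the 1 CPM floor, without E861A 6 and without WT 15. Fitted log2 fold changes were 0.98 (SE 0.44) for Il9r, 0.81 (SE 0.26) for Il21r and 0.37 (SE 0.33) for Il13ra1, which binds IL-13 and pairs with Il4ra rather than with the common gamma chain. The chains for IL-7 and for IL-2 and IL-15 lay on the other side of 0, with -0.59 (SE 0.43) for Il7r and -0.32 (SE 0.44) for Il2rb. Both directions turned with sex as a covariate, to 0.11 for Il7r and 0.12 for Il2rb, where E861A is set against the male WT 2 alone. The IL-7 receptor gene Il7r was at 0.615, 0.960 and 0.591 CPM in E861A and at 0.667, 1.62 and 0.980 CPM in WT, with overlapping groups.

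Markers of the lymphoid cells that use these cytokines were low in both genotypes. Of 15 markers of T, B, natural killer and innate lymphoid cells 8 were tested, of which 2 rose (Gata3 and Id2) and 1 fell (Rag1), while with sex as a covariate 0 were called in either direction. Their sum was 103 to 136 CPM in E861A and 56.0 to 80.9 CPM in WT. Cd3e, which defines T cells, had no read in E861A 6 and 16 or in any WT library, and 0.0219 CPM in E861A 19. Of 11 mast cell and basophil markers 4 were tested and none passed the edgeR test (Hdc alone had an unadjusted p under 0.05). With sex as a covariate 1 of these markers was called higher in E861A and 0 lower. Their sums were 38.5 to 56.9 CPM in E861A and 22.7 to 45.7 CPM in WT, and Mcpt4 had no read. The part of either marker set in the rise of Il4, Il7, Il15 and Il2rg was not tested.

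In the IL-1 family 4 of 14 tested genes rose, and 2 of them oppose IL-1. Il1rn (ENSMUSG00000026981, chromosome 2, 24192373 to 24207014, plus strand), the IL-1 receptor antagonist, had 3.33, 3.53 and 2.36 CPM in E861A, against 0.575, 1.199 and 0.821 CPM in WT (log2 fold change 1.83, SE 0.37, edgeR adjusted p = 0.0183). Il1r2 (ENSMUSG00000026073, chromosome 1, 40141613 to 40182064, plus strand), a decoy receptor that binds IL-1 without signalling, had 1.54, 1.75 and 1.16 CPM in E861A, against 0.276, 0.626 and 0.397 CPM in WT (1.77, SE 0.41, edgeR adjusted p = 0.0292). In each gene the groups did not overlap and the male WT library was the lowest. Both are among the genes whose promoter is printed above.

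The IL-1 ligands themselves did not pass the test. Il1b had 0.378, 0.762 and 0.700 CPM in E861A and 0.299, 0.704 and 0.583 CPM in WT, with a log2 fold change of 0.22 (SE 0.46). Il1a had 6.31, 2.51 and 2.63 CPM in E861A and 2.60, 3.91 and 2.25 CPM in WT, with 0.39 (SE 0.43), its highest value in E861A 6. The signalling receptor Il1r1 differed by 0.36 (SE 0.14, edgeR adjusted p = 0.131) and its accessory chain Il1rap by 0.68 (SE 0.23, edgeR adjusted p = 0.102), in both with all E861A libraries above all WT libraries.

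IL-18 induces interferon-gamma in lymphoid cells, and it was measured on both sides of its signal. Il18 (ENSMUSG00000039217, chromosome 9, 50383378 to 50389942, plus strand) had 3.36, 1.86 and 2.47 CPM in E861A, against 1.33, 0.808 and 0.821 CPM in WT (log2 fold change 1.37, SE 0.37, edgeR adjusted p = 0.0488). Il18rap (ENSMUSG00000026068, chromosome 1, 40572207 to 40608550, plus strand), the accessory chain of its receptor, had 8.46, 12.3 and 10.98 CPM in E861A, against 3.24, 5.71 and 4.502 CPM in WT (1.24, SE 0.27, edgeR adjusted p = 0.0242). Neither gene had overlapping groups, and Il18 was the closest of the 14 to the threshold.

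The binding chain of the IL-18 receptor, Il18r1, was far lower than the accessory chain, at 0.0709, 0.452 and 0.350 CPM in E861A and 0.0920, 0.287 and 0.185 CPM in WT, with overlapping groups (log2 fold change 0.62, SE 0.70). Il18bp, a secreted protein that neutralises IL-18, had 31.7, 12.3 and 10.6 CPM in E861A and 8.07, 8.79 and 7.55 CPM in WT. Its fitted log2 fold change of 1.16 (SE 0.41, edgeR adjusted p = 0.117) was 0.49 without E861A 6. Of the rest of the family, Il33 had 0.90 (SE 0.70), its receptor Il1rl1 0.15 (SE 0.23), Il1f9 (IL-36 gamma) 0.49 (SE 0.44) and the IL-36 receptor Il1rl2 0.00 (SE 0.41).

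**Figure D2:**
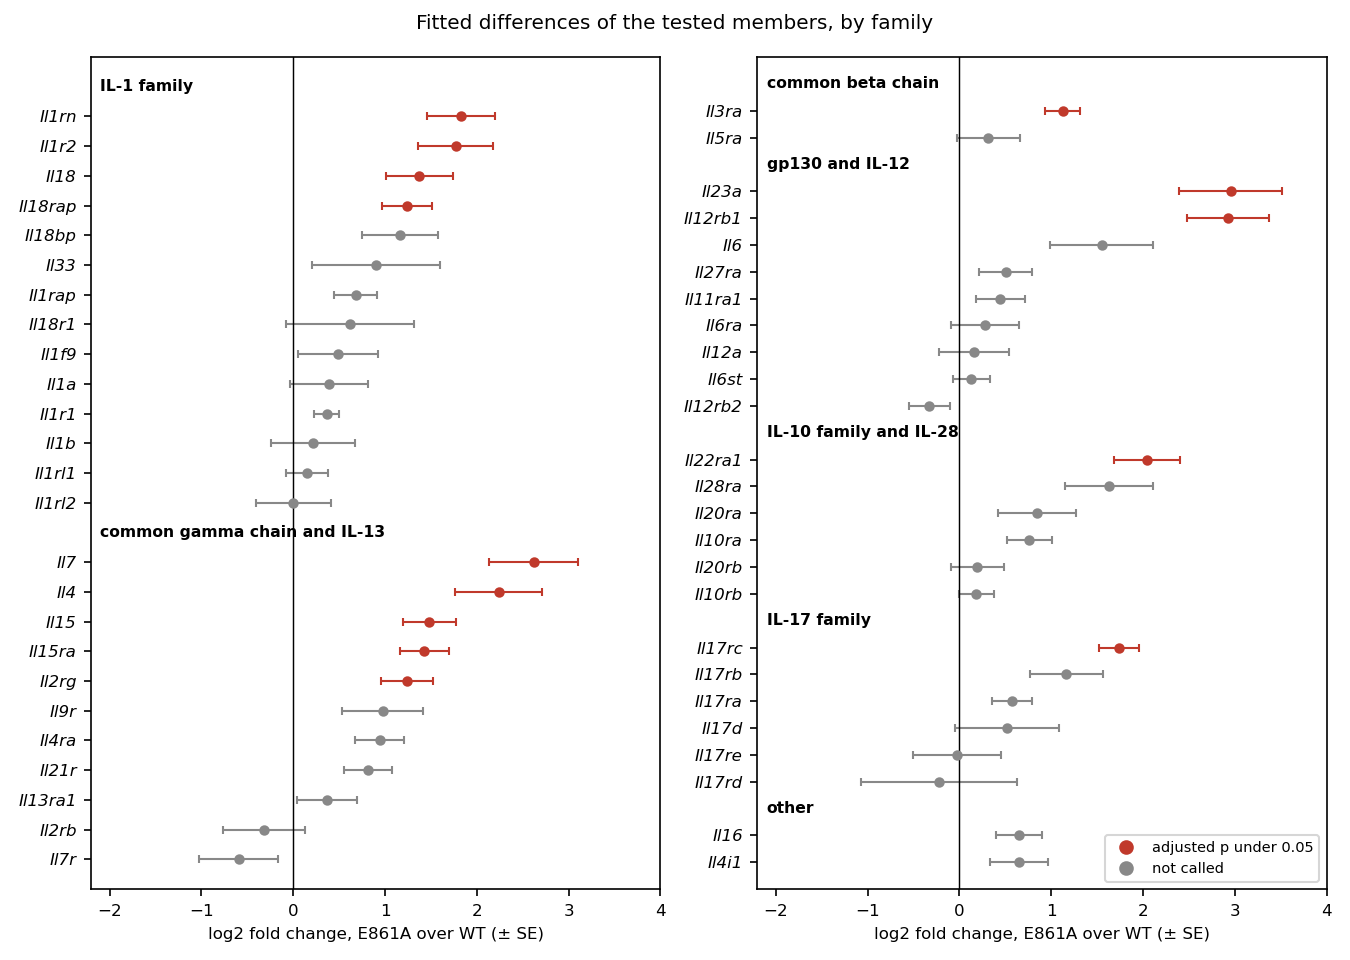
Fitted log2 fold change of E861A over WT (x axis, points, with bars of 1 SE) for the 50 tested interleukin genes, grouped by family, with those at an adjusted p under 0.05 in red. The 14 red points lie between 1.12 and 2.95, and 5 grey points lie below 0.

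Among the IL-12 and gp130 cytokines, 2 of 9 tested genes rose, and both encode chains used by IL-23. Il12rb1 (ENSMUSG00000000791, chromosome 8, 73332348 to 73345323, plus strand), the chain shared by the IL-12 and IL-23 receptors, had 2.17, 3.59 and 2.84 CPM in E861A, against 0.184, 0.495 and 0.450 CPM in WT (log2 fold change 2.93, SE 0.45, edgeR adjusted p = 0.00603). Il23a (ENSMUSG00000025383, chromosome 10, 127733196 to 127735140, minus strand), the subunit found in IL-23 but not in IL-12, had 0.638, 1.72 and 0.613 CPM in E861A, against 0.161, 0.104 and 0.106 CPM in WT (2.95, SE 0.56, edgeR adjusted p = 0.0147). These are the largest fitted fold changes among the 50, and neither gene had overlapping groups. Il23a reached the minimum on reads in no WT library, so it entered the test through E861A libraries alone. Its place in this ranking and its lack of overlap are therefore not independent of how it entered.

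Il23a rested on 27, 61 and 28 reads in E861A and on 7, 4 and 4 reads in WT. It lies 3291 bases from Stat2, which rose by a log2 fold change of 3.46 (SE 0.17) at far higher levels, and what reads from that gene add to Il23a was not tested. The subunit with which the Il23a product pairs, Il12b, had fewer than 10 reads in all, and the IL-23 receptor gene Il23r had none. Il12rb2, which completes the IL-12 receptor, had 3.05, 3.27 and 3.15 CPM in E861A and 3.82, 4.09 and 3.97 CPM in WT. All E861A libraries lay below all WT libraries, but the log2 fold change of -0.33 (SE 0.22) did not pass the test. Il12a, the IL-12 subunit, had 0.16 (SE 0.38).

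No gene of the IL-6 and IL-11 receptors passed. Il6 had 0.591, 0.367 and 0.306 CPM in E861A and 0.138, 0.235 and 0.0530 CPM in WT, with no overlap and a log2 fold change of 1.55 (SE 0.56, edgeR adjusted p = 0.118). Its binding chain Il6ra differed by 0.28 (SE 0.37), gp130 itself (Il6st) by 0.13 (SE 0.20), Il11ra1 by 0.45 (SE 0.27) and Il27ra by 0.50 (SE 0.29). Il11ra1 has a near-identical copy, Il11ra2, so its count is uncertain.

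In the IL-10 and IL-28 family 1 of 6 tested genes rose, and all 6 are receptor chains, since none of the 7 ligands reached the filter. Il22ra1 (ENSMUSG00000037157, chromosome 4, 135284087 to 135308055, plus strand), through which IL-22 acts on hepatocytes and epithelia, had 3.55, 7.76 and 4.64 CPM in E861A, against 1.22, 1.54 and 1.11 CPM in WT (log2 fold change 2.04, SE 0.36, edgeR adjusted p = 0.0110). All E861A libraries were above all WT libraries. Its neighbour 39 bases away on the same strand, 9130219A07Rik, rose by 2.52 (SE 0.28, edgeR adjusted p = 0.00122), and whether reads of one were counted in the other was not tested. Il28ra, the binding chain for the lambda interferons, had 1.04, 2.40 and 1.55 CPM in E861A and 0.759, 0.547 and 0.291 CPM in WT (1.63, SE 0.48, edgeR adjusted p = 0.0648). Il10rb, the chain with which both Il22ra1 and Il28ra pair, differed by 0.18 (SE 0.19), Il10ra by 0.76 (SE 0.24, edgeR adjusted p = 0.0837), Il20ra by 0.84 (SE 0.42) and Il20rb by 0.19 (SE 0.29). The exons of Il10rb share 14.96% of their bases with Ifnar2.

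Il17rc (ENSMUSG00000030281, chromosome 6, 113421421 to 113433134, plus strand) had the smallest p of all interleukin genes. It encodes the chain that joins Il17ra in the receptor for IL-17A and IL-17F, and it had 12.6, 11.6 and 9.34 CPM in E861A, against 3.43, 2.97 and 3.68 CPM in WT (log2 fold change 1.74, SE 0.22, edgeR adjusted p = 0.00237). The lowest E861A library stood far above the highest WT library. Creld1, 157 bases away on the same strand, rose by 0.69 (SE 0.17). Il17ra had 46.1, 68.3 and 55.5 CPM in E861A and 28.1, 44.998 and 41.2 CPM in WT, without overlap, and did not pass (0.57, SE 0.22, edgeR adjusted p = 0.135). Of the other receptors, Il17rb (for IL-25) had 1.16 (SE 0.40), Il17re (for IL-17C) -0.03 (SE 0.48) and Il17rd, a brake on fibroblast growth factor signalling, -0.22 (SE 0.85). The ligand Il17d had 0.52 (SE 0.56), Il17a had no read, and Il17f had 9, 6 and 10 reads in E861A and 2, 5 and 5 reads in WT.

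Il3ra (ENSMUSG00000068758, chromosome 14, 15179009 to 15188004, plus strand), the chain that binds IL-3, a growth factor of myeloid progenitors and mast cells, had 9.999, 11.3 and 10.7 CPM in E861A, against 4.48, 5.50 and 4.69 CPM in WT (log2 fold change 1.12, SE 0.19, edgeR adjusted p = 0.00973). Both groups were tight and did not overlap. Its signalling partner Csf2rb rose as well, to 70.4 ± 10.6 CPM in E861A against 28.1 ± 10.5 CPM in WT (SD, n = 3 each; 1.33, SE 0.29). Il5ra, which also pairs with Csf2rb, had 0.31 (SE 0.34), and Il3 had no read. Beside these, 2 of 10 tested granulocyte markers rose (Prtn3 and Ctsg; 1 with sex as a covariate), with summed markers at 397 to 689 CPM in E861A and 262 to 481 CPM in WT. Of 12 macrophage markers 2 rose (Fcgr1 and Cd68; 1 with sex as a covariate) and 1 fell (Emr1; 0 with sex), with sums of 372 to 473 CPM in E861A and 371 to 452 CPM in WT. The part of either marker set in the rise of Il3ra was not tested.

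Outside these families, Il16, a chemoattractant of CD4+ cells, had 5.79, 9.23 and 7.66 CPM in E861A and 4.001, 5.16 and 5.30 CPM in WT, without overlap (log2 fold change 0.65, SE 0.25, edgeR adjusted p = 0.139). Il16 shares 15.3% of its exon bases with Stard5, which had a log2 fold change of 1.42. Il4i1, an amino acid oxidase made by immune cells, had 0.65 (SE 0.31).

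The 35 genes below the filter were mostly ligands, and 7 of them had no read in any library: Il3, Il9, Il17a, Il23r, Il1f5, Il1f6 and Il1f8. A further 18 had 1 to 9 reads over the 6 libraries, namely Il2, Il5, Il10, Il12b, Il13, Il19, Il20, Il21, Il22, Il24, Il25, Il28a, Il28b, Il31, Il11ra2, Il13ra2, Il1f10 and Il1rapl2. The remaining 10 had at least 10 reads. Il27, a subunit of an IL-12-like cytokine of myeloid cells, had 15, 18 and 9 reads in E861A and 3, 2 and 1 reads in WT, and it passed where no filter was used, when 16 interleukin genes and 4.75% of all genes with a read rose. It shares 10.1% of its exon bases with Apobr, which had a log2 fold change of 1.32. Il11 had 7, 13 and 13 reads in E861A and 4, 2 and 7 reads in WT, and Il34, a ligand of the macrophage receptor Csf1r, had 3, 10 and 2 reads in E861A and 2, 1 and 1 reads in WT. Summed over 3 libraries a genotype, Il17c had 18 reads in E861A and 8 in WT, Il31ra 24 in E861A and 25 in WT, and Il17b 13 in E861A and 10 in WT. Il2ra had 10 reads in E861A and 10 in WT, and Il22ra2, a soluble trap for IL-22, 9 in E861A and 10 in WT. Il1rapl1, a synaptic protein, had 26 reads in E861A, 22 of them in liver 19, and 13 in WT.

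Levels between genes were compared per kilobase of exon (RPKM), and receptor chains led. In both genotypes Il17ra ranked first, at 14.3 ± 2.80 RPKM in E861A and 9.60 ± 2.24 RPKM in WT (SD, n = 3 each). In WT the order went on with Il1r1 (8.19 ± 0.564 RPKM), Il6st (6.86 ± 1.77) and Il18bp (5.81 ± 0.444), and each neighbouring pair in this order overlapped within 1 SD. Among E861A livers the next were Il18bp (12.99 ± 8.35 RPKM, set by liver 6), Il1r1 (10.5 ± 1.12) and Il3ra (7.65 ± 0.456). Of the 50 tested genes 26 reached 1 RPKM in E861A and 21 in WT, and the median was 1.08 RPKM in E861A and 0.639 RPKM in WT.

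The 14 that rose changed places by different amounts in that order. Il3ra ranked 4 in E861A and 7 in WT, Il17rc 11 in E861A and 19 in WT, and Il15 12 in E861A and 17 in WT. Il12rb1 reached 0.998 ± 0.246 RPKM in E861A, against 0.131 ± 0.0586 RPKM in WT, ranking 27 in E861A and 44 in WT. Il7 ranked 40 in E861A and 53 in WT, at 0.415 ± 0.107 RPKM in E861A and 0.0673 ± 0.0368 RPKM in WT.

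**Figure D3:**
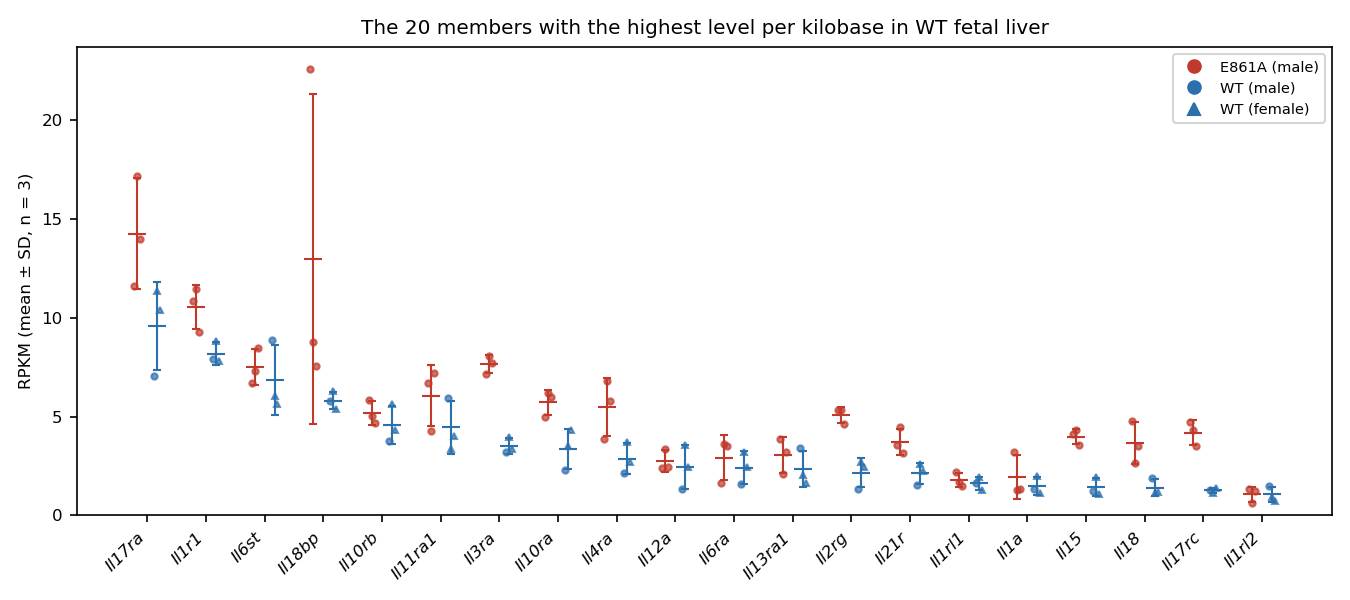
RPKM of the 20 interleukin genes with the highest mean in WT livers, for 3 E861A libraries (red, left of each pair) and 3 WT libraries (blue; circles male, triangles female), with mean and SD. Il17ra leads in both genotypes, and the E861A mean of Il18bp rests on 1 library.

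Several genes differed more within a genotype than between genotypes. The ratio of the highest to the lowest library of a genotype had a median over the 50 of 1.65 in E861A and 1.80 in WT, and it was over 2 for 17 genes in E861A and 22 in WT. Il17rd had 4.28, 2.65 and 14.8 CPM in E861A and 18.3, 2.97 and 4.10 CPM in WT, with E861A 19 and WT 2 far above the rest. Il33, an alarm signal of stromal and endothelial cells, had 1.70, 0.790 and 3.28 CPM in E861A and 1.89, 0.860 and 0.344 CPM in WT. The same libraries, E861A 19 and WT 2, were the highest of their genotype.

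Il17d had 1.47, 0.678 and 1.40 CPM in E861A and 1.52, 0.391 and 0.556 CPM in WT, and Il13ra1 had 14.4, 7.74 and 11.8 CPM in E861A and 12.6, 7.59 and 6.17 CPM in WT. Both were lowest among E861A livers in liver 16 and highest among WT livers in liver 2. Summed over 13 mesenchymal and stellate markers, 0 of which passed the edgeR test and 0 had an unadjusted p under 0.05, the libraries had 1458, 775 and 1916 CPM in E861A and 2154, 594 and 1399 CPM in WT. Of 10 endothelial markers 3 rose (Ramp2, Pecam1 and Emcn) and 1 fell (Stab2), 0 in either direction with sex as a covariate, with sums of 486 to 697 CPM in E861A and 465 to 589 CPM in WT. The part of mesenchymal or endothelial cells in these spreads was not tested.

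**Figure D4:**
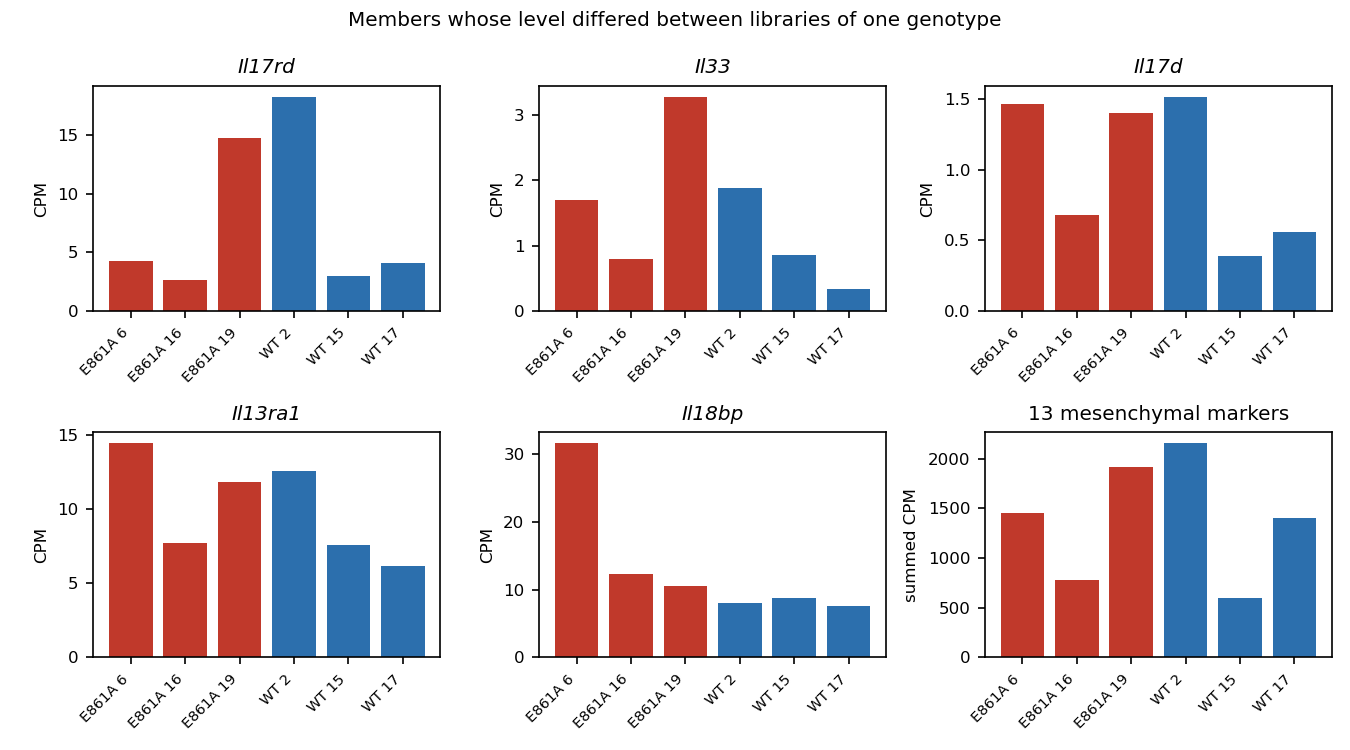
CPM by library (3 E861A in red, 3 WT in blue) of Il17rd, Il33, Il17d, Il13ra1 and Il18bp, and the summed CPM of 13 mesenchymal markers, each on its own axis from 0. WT 2 is the highest WT library in each panel but that of Il18bp, where E861A 6 stands alone at 31.7 CPM.

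Genes that work with interleukins but carry other names were counted by list. The counts are to be read beside the 7.77% of all tested genes that rose, the 4.26% that fell and the median log2 fold change of 0.04 over all genes. The lists were chosen with earlier results of these data known, so their shares are not an independent contrast with all genes. Of receptor partners and related cytokines 8 of 25 tested rose and 0 fell, with a median of 0.75. The number that rose was 4 with sex as a covariate, 1 in male libraries alone, 1 without E861A 16, 3 without E861A 19, WT 15 or WT 17, and 9 without WT 2. Lif, which signals through gp130, averaged 1.47 ± 0.289 CPM in E861A and 0.159 ± 0.00227 CPM in WT (SD, n = 3 each; log2 fold change 3.19, SE 0.36). Its reads were 61, 63 and 55 in E861A and 7, 6 and 6 in WT, under the minimum for testing in each WT library, so that it entered the test through the E861A libraries alone. Csf1, the macrophage growth factor, averaged 54.2 ± 8.93 CPM in E861A and 14.2 ± 6.67 CPM in WT (1.93, SE 0.32). Flt3l, a growth factor of lymphoid and dendritic precursors, and Osm, a gp130 cytokine, rose by 1.13 (SE 0.22) and 1.35 (SE 0.29).

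Of the signal transducers of interleukin receptors 4 of 24 rose and 0 fell, with a median of 0.24, against 7.77% higher, 4.26% lower and a median of 0.04 over all genes. With sex as a covariate 4 rose, and 2 did without E861A 16. Stat2, which also carries interferon signals, averaged 330 ± 40.9 CPM in E861A and 30.0 ± 2.61 CPM in WT (SD, n = 3 each). Socs1, a feedback inhibitor of JAK kinases, rose by 3.17 (SE 0.52), and Myd88, the adaptor of the IL-1 and IL-18 receptors, by 0.86 (SE 0.21).

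Genes of the inflammasome, through which IL-1 beta and IL-18 are cut and released, included sensors and regulators as well as proteases. Of these 14 genes, 8 were higher and 1 lower, with a median of 1.11. Over all genes 7.77% were higher and 4.26% lower, with a median of 0.04. The number higher was 6 with sex as a covariate, 2 in male libraries alone, and 5 without E861A 16 or without WT 17. Casp1, the protease that matures both cytokines, averaged 9.99 ± 0.907 CPM in E861A and 2.15 ± 0.259 CPM in WT (log2 fold change 2.22, SE 0.22). Casp4 had 9.08 ± 1.49 CPM in E861A and 0.434 ± 0.219 CPM in WT (4.39, SE 0.40), and the pore protein Gsdmd 37.2 ± 5.06 CPM in E861A and 7.07 ± 0.437 CPM in WT (2.40, SE 0.16). Naip5, an inflammasome sensor of bacterial proteins, rose by 1.46 (SE 0.21), and Nek7, which licenses NLRP3, fell by 0.68 (SE 0.16) on the log2 scale, and no gene of the list fell with sex as a covariate, in male libraries, or without E861A 16, E861A 19, WT 15 or WT 17.

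Of known hepatocyte targets of IL-6 and gp130, 10 of 16 rose and 0 fell, with a median of 0.83, against 7.77% higher, 4.26% lower and a median of 0.04 over all genes. The number that rose was 5 with sex as a covariate, 2 in male libraries alone, 4 without E861A 16 or WT 17, 6 without E861A 6 or WT 15, and 8 without E861A 19 or WT 2. Cebpb, a transcription factor of the acute phase, averaged 20.2 ± 3.37 CPM in E861A and 3.45 ± 0.646 CPM in WT (log2 fold change 2.55, SE 0.22). Saa3, an acute-phase protein, had 3.79 ± 1.40 CPM in E861A and 0.392 ± 0.0412 CPM in WT (3.26, SE 0.39), and the endotoxin carrier Lbp 48.6 ± 9.41 CPM in E861A and 19.7 ± 3.05 CPM in WT (1.30, SE 0.19). Hamp, the iron hormone hepcidin, had 1.76 ± 0.886 CPM in E861A and 0.0252 ± 0.00191 CPM in WT, on 116, 53 and 47 reads in E861A and 1 read in each WT library, and it too entered the test through E861A libraries alone. Junb of this list is also in the dissociation list and Fgb in the hepatoblast list, both of which rose in part (above), and their part in these counts was not tested.

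How firmly a gene stood depended on the libraries and on sex. The number that rose was 10 without E861A 6 (6.24% of all genes), 2 without E861A 16 (3.02%), 11 without E861A 19 (5.89%), 16 without WT 2 (10.4%), 12 without WT 15 (4.64%) and 2 without WT 17 (3.23%). Il12rb1 and Il17rc were called in each of these 6 fits. Il3ra, Il15, Il15ra and Il22ra1 lost the call without E861A 16 and without WT 17. Il1r2, Il1rn and Il7 lost it also without E861A 6, Il18rap also without E861A 19, and Il23a also without WT 15. Il4 lost it without E861A 16, E861A 19, WT 15 or WT 17, and Il2rg without any of the E861A livers or WT 17. Il18 kept it only without WT 2.

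With sex as a covariate 5 rose (3.21% of all genes), namely Il2rg, Il7, Il12rb1 and Il17rc of the 14 together with Il10ra. Il7 then had a log2 fold change of 3.59 and Il12rb1 3.94, both above the values without that term. Of the 10 that lost the call, 8 had a larger log2 fold change than without the sex term, among them Il4 at 2.70, Il1r2 at 2.41, Il1rn at 2.41 and Il15 at 1.67, while Il23a had 2.59 and Il18 0.94, both smaller. Among male libraries alone, 3 E861A against 1 WT, 0 rose (1.68% of all genes), with the lone WT library assumed to vary like the others. Each of the 14 kept a log2 fold change above 0 in every fit that tested it, the male libraries included. Il4 and Il23a were not tested with the 1 CPM floor. Since 2 of the 3 WT livers were female and no E861A liver was, sex and genotype are partly tied. The fit with a sex term therefore sets the E861A livers against WT 2, the only male WT liver. Its log2 fold changes lay near those of male libraries alone, at 3.59 and 3.61 for Il7 and 2.70 and 2.72 for Il4. Both the larger and the smaller values with the sex term thus rest on 1 WT library. The authors' deposited table listed 41 of the interleukin genes, 12 higher in E861A and 0 lower, and all 12 are among the 14. In the authors' deposited table Il18 had an adjusted p of 0.0517, and Il23a is not among the genes listed.

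**Figure D5:**
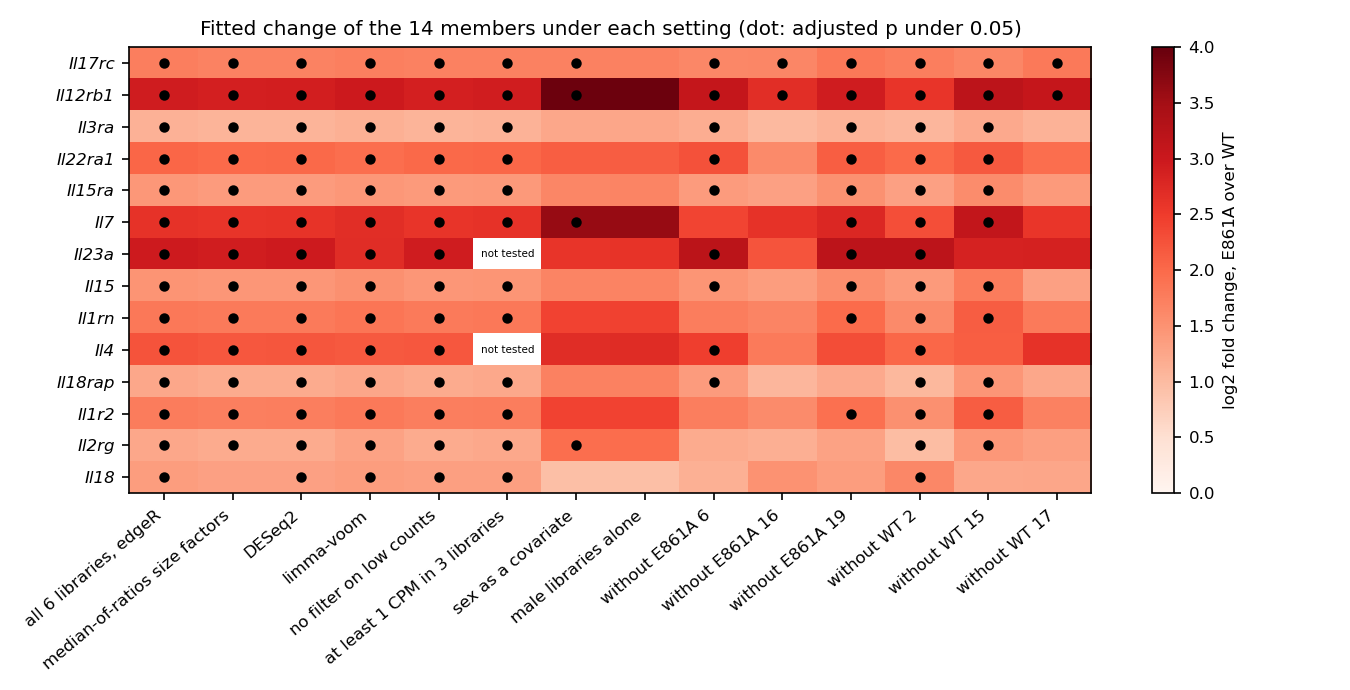
Log2 fold change of E861A over WT (colour) for the 14 genes that rose, by row, under each of 14 fits, by column, with a dot where the adjusted p was under 0.05. Il12rb1 and Il17rc carry a dot in every column but that of the male libraries alone. Il4 and Il23a were not tested with the 1 CPM floor.

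Because the mutation removes editing, the site table was searched for interleukin genes. It holds 6012 sites in 2048 named genes, and 0 of them lay within any of the 85 genes or within 5000 bases of one. No editing level could therefore be compared for an interleukin or interleukin receptor transcript.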

How the data were processed

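Whole livers of 6 embryos were sequenced. The labels number the livers but name no litter, so p-values measure the spread between these livers. The submitters' processing notes name mm9 and NCBIM37 and the tools HTSeq, edgeR, limma, BWA, Cufflinks, TopHat2 (2.0.8), Bowtie2 (2.1.0.0), Trimmomatic (0.30) and SAMtools (0.1.19), whose roles and order are not given in the sources used here. Expression values are the authors' raw counts per gene, as deposited. Per the file headers, the authors' table of editing sites gives covering reads as counts and the edited share as a fraction. The authors' deposited comparison holds log2 fold changes, whose sign (WT over E861A) was turned here, and adjusted p-values. The normalised table was not used, being the raw counts times 1 constant per library.

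Genes were tested with edgeR 4.0.16 in R 4.3.3 (filterByExpr with a minimum count of 10, TMM, robust quasi-likelihood fit over all 6 libraries) with Benjamini-Hochberg adjustment over 16511 genes. SE was obtained by dividing the log2 fold change by the root of the F statistic, and CPM use TMM-scaled totals. RPKM divide CPM by the summed exon length in GENCODE M1, in which 83 of the 85 genes have the same start. DESeq2 1.42.0 and limma 3.58.1 (voom), other filters and size factors, sex as a covariate, male libraries alone and leaving out each library were alternatives. The fit was also run on simulated data with 200 changed genes, and the share recovered is not reported here. Every gene that passed is named with its libraries, other tested genes with their fold change, and at most 4 genes for each pathway list by smallest p, of which 1 is not reported here. Csf2rb, Nek7, Junb and Fgb were named beyond this rule, after their values were seen. Members and lists were chosen with earlier results of these data known. Strandedness is not given in the sources used here. Positions are NCBIM37, and promoters GRCm38.p6.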

Additional observations from a re-analysis of the deposited data

How the results depend on the processing

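No paired analysis was possible because no liver number occurs in both genotypes and litters are not given. Of 180 values of the 14 genes that rose under alternatives, 119 kept direction and call and 61 kept direction alone. The number of interleukin genes that rose, 14, was 5 with sex as a covariate, 0 in male libraries and 2 to 16 over fits without 1 library. Low counts limit Il4, Il7, Il12rb1 and Il23a most. Partner genes that rose, 8, numbered 4 with sex, 1 in males and 1 to 9 without 1 library, and those that fell, 0, numbered 1 by median-of-ratios factors or DESeq2 and 0 to 2 without 1 library. Transducers that rose, 4, numbered 2 to 5 without 1 library, and those that fell, 0, numbered 1 by DESeq2 or at 1 CPM and 0 to 2 without 1 library. Inflammasome genes that rose, 8, numbered 2 in males and 5 to 8 without 1 library, and the 1 that fell numbered 0 with sex or in males and 0 to 1 without 1 library. IL-6 targets that rose, 10, numbered 5 with sex, 2 in males and 4 to 8 without 1 library. The median WT level of 0.639 RPKM was 0.939 by longest transcript and 0.512 to 0.624 without 1 WT library, an alternative added after seeing the data.

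Among genes not called, 415 of 459 values kept direction and call, 10 passed the test and 34 turned direction. The log2 fold change with sex as a covariate and in males was -0.15 and -0.14 for Il13ra1, 0.12 and 0.14 for Il2rb, 0.11 and 0.12 for Il7r, -0.24 and -0.24 for Il6st, -0.36 and -0.35 for Il17d, and -0.50 and -0.49 for Il1rl2. That of Il1rl2 was also -0.054 by median-of-ratios factors, -0.053 by DESeq2, -0.046 with a 1 CPM floor, -0.00068 by limma-voom and -0.034 without a filter. Without 1 library it ran from -0.20 to 0.32 for Il1rl2, -0.52 to 0.093 for Il2rb, -0.14 to 0.53 for Il12a, -0.19 to 0.65 for Il1a, -0.086 to 0.48 for Il1b, -0.029 to 0.31 for Il1rl1, -0.029 to 0.26 for Il20rb, -1.35 to 0.99 for Il17rd and -0.50 to 0.24 for Il17re. With sex as a covariate or in males, WT 2 is the only WT liver that E861A is set against. The cause of these turns was not tested. Because 0 of the 6012 editing sites lay in an interleukin gene, no coverage minimum could change that result.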
